A study of Mus musculus with 30 samples.

Results

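The cyclic AMP phosphodiesterases described here are 10 genes, Pde1a, Pde2a, Pde3a, Pde3b, Pde4a, Pde4b, Pde4d, Pde7b, Pde8a and Pde10a, chosen by symbol in the platform's annotation and read by 28 of the 45037 probe sets of the array. They were followed in whole lungs of 30 C57BL/6 mice, 1 array per animal, on the Affymetrix mouse 430 2.0 chip. Adult animals were 16 weeks old and juvenile animals 21 days old. At each age, 1 group inhaled an aerosol of E. coli lipopolysaccharide (LPS, an endotoxin that Toll-like receptor signalling detects) for 30 min, from 20 mL of a solution at 0.1 mg/mL, and was then mechanically ventilated (LPS+MV). Another inhaled LPS and breathed spontaneously (LPS), another was ventilated without LPS (MV), and untreated animals that breathed spontaneously were the controls. Ventilated animals received breaths of 15 mL/kg in 30% oxygen during 2 h, and the LPS group was studied for 2 h as well. Each group held 4 animals, except 3 in juvenile LPS+MV and 3 in juvenile MV. The tissue is the whole organ, so fewer cells of a type and less RNA per cell cannot be told apart.

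Cyclic AMP is made by adenylyl cyclases below G protein-coupled receptors and acts through protein kinase A, EPAC and CREB, and phosphodiesterases end its signal by hydrolysing it. In the lung, cyclic AMP relaxes airway and vascular smooth muscle, tightens the endothelial barrier and restrains cytokine release by leukocytes. The families differ in control: PDE3 enzymes are inhibited by cyclic GMP, PDE4 enzymes are specific for cyclic AMP and are the targets of rolipram and roflumilast, and PDE7 and PDE8 enzymes are specific for cyclic AMP but insensitive to rolipram.

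Of the 28 probe sets, 16 exceeded the median of their array on 3 or more arrays and were kept, and they covered 9 of the 10 genes. Each gene was read from its kept probe set with the highest mean, and each of those 9 probe sets was above its array's median on all 30 arrays. Pde1a, a calcium and calmodulin dependent enzyme, was not tested: its probe sets lay below the array's median on every array, at 8.65 to 12.5 and at 10.2 to 17.2. Levels below are intensities on the authors' linear scale, and differences are of log2(intensity + 32) ± the standard error of a limma fit over all 30 arrays and 13089 genes, adjusted over those genes. Folds and fractions of control are those differences taken off the log2 scale. They include the added 32 and so differ from ratios of the printed levels. Groups that do not overlap are named below as a description, as they are frequent among all genes tested. The share in pairwise comparisons ran from 16.4% (adult LPS+MV against LPS) to 42.2% (adult LPS+MV against control). The range of the 8 group means was widest for Pde4b, at 1.80 log2 units, which exceeded that of 97.8% of genes tested, and for Pde7b, at 1.70, which exceeded 97.4%. It was 1.11 for Pde4d, 0.996 for Pde3a and 0.94 for Pde3b, and at most 0.41 for Pde8a, Pde2a, Pde10a and Pde4a.

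Some facts of the arrays bear on all results. Array medians lay between 21.6 and 22.8, and the upper quartile between 89.1, on adult MV replicate 3, and 111. The lung markers Sftpc, of alveolar type 2 cells, and Ager, of alveolar type 1 cells, averaged 19576 and 11992 in adult controls and 20405 and 10536 in juvenile controls. Sex is not in the labels, and Xist was above 100 in 3 of 4 adult LPS+MV, 0 of 4 adult LPS, 4 of 4 adult MV and 0 of 4 adult control arrays, so in adults this pattern overlaps with ventilation. In juveniles it was above 100 in 2 of 3 LPS+MV, 0 of 4 LPS, 1 of 3 MV and 1 of 4 control arrays. A fit with Xist as a term was therefore made for every comparison, and its values are given where they end a call and beside the adult ventilation results. The term was shared by all groups, and of the adult groups only LPS+MV held arrays on both sides of 100. This fit therefore cannot separate Xist from ventilation in adults, also where a call was kept.

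**Figure D1:**
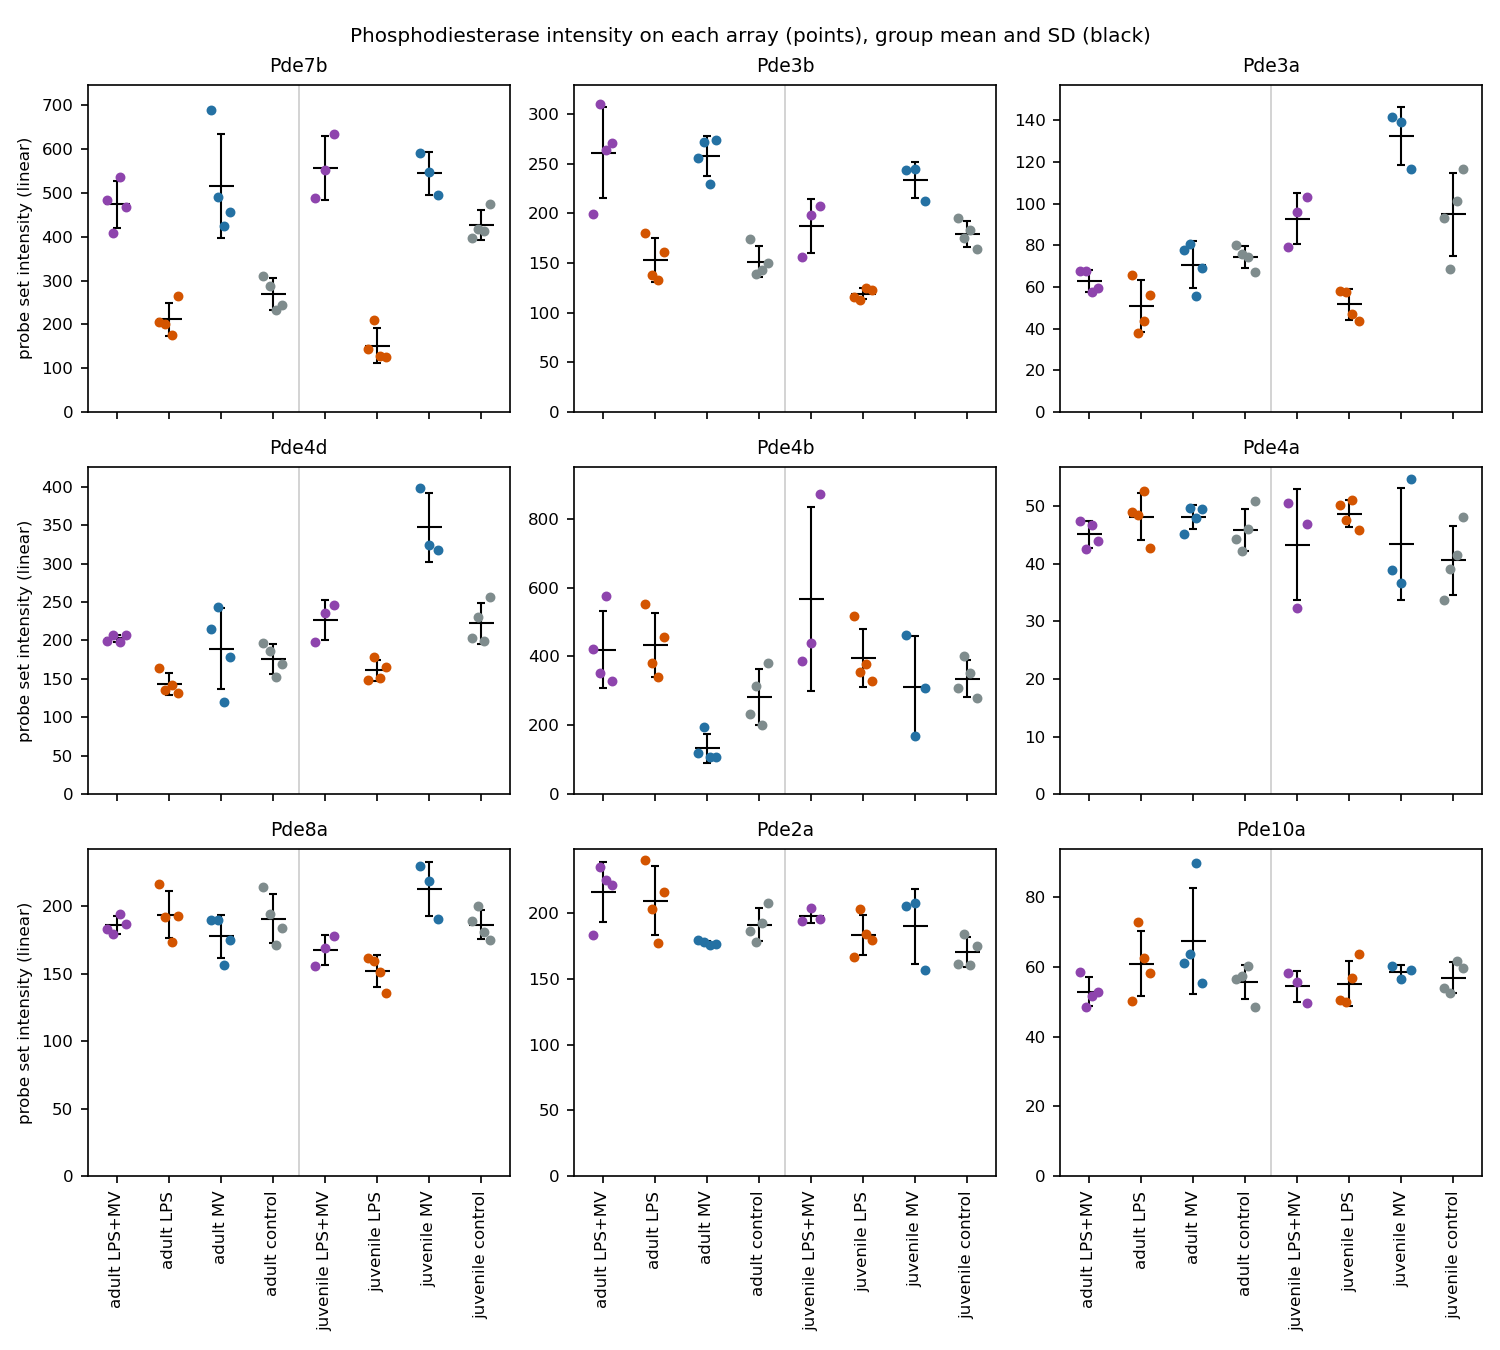
Intensity on the linear scale of the 9 tested phosphodiesterases (vertical axis) on each array (points) in the 8 groups (horizontal axis), with group means and SD in black. Among juvenile arrays those of LPS lie lowest for Pde7b, at 125 to 209, juvenile MV arrays lie highest for Pde4d, at 318 to 399, and among adult arrays those of MV lie lowest for Pde4b, at 107 to 196.

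Pde7b, which encodes a rolipram-insensitive enzyme specific for cyclic AMP, was lower after LPS in juveniles and higher when LPS was followed by ventilation. The RefSeq promoter window of Pde7b (GRCm38.p6, chr10:20548279-20548578, minus strand) is shown with those of Pde4d (chr13:108653927-108654226, plus strand) and Pde8a (chr7:81213015-81213314, plus strand), because these are the genes lower after juvenile LPS that have a window in the table; each window runs from 250 bases before to 50 bases after the gene start, 5′ to 3′, with motif matches in capitals.
Pde7b: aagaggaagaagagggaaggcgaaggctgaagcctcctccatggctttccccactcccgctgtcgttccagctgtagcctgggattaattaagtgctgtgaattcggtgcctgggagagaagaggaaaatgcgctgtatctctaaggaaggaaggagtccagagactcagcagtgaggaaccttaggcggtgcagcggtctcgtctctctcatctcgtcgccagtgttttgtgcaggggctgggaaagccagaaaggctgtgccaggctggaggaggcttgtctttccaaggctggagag
Pde4d: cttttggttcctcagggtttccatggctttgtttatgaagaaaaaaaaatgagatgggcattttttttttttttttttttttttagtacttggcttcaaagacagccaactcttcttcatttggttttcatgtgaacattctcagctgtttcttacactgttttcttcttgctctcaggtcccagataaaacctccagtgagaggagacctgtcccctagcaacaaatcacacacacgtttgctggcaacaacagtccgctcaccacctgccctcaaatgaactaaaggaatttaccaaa
Pde8a: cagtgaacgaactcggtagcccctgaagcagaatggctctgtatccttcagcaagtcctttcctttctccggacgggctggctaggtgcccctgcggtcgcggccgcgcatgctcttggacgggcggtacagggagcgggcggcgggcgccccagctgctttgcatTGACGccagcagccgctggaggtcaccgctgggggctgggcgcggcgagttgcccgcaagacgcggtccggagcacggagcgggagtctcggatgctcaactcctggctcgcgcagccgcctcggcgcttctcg
Both strands were searched for the CRE (TGACGTCA), its core (TGACG, which a full CRE contains), AP-1 (TGANTCA, N being any base) and TEAD (GGAATG). Pde8a held 1 CRE core at position -84 from the gene start, and Pde7b and Pde4d held none of these letters. Of all 32851 windows of 300 bases, 20.8% held the CRE core, 14.7% TEAD, 7.81% AP-1 and 1.79% the full CRE, and a match is a description of letters only. In all, 8 of the 10 genes had 21 windows, and among the 4 windows of Pde4b 1 held a CRE core.

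In juveniles, Pde7b stood at 488, 551 and 634 in LPS+MV lungs, at 143, 209, 128 and 125 in LPS lungs, at 592, 547 and 495 in MV lungs, and at 397, 417, 414 and 475 in control lungs. Every LPS lung lay below every lung of the other juvenile groups. With the added 32, the gene fell to 0.395 of control after LPS (-1.34 ± 0.14, adjusted p = 1.7e-08), and LPS+MV lungs were 3.25-fold above LPS lungs (1.70 ± 0.15, adjusted p = 1.9e-08). Ventilation without LPS gave 0.33 ± 0.15 against control (adjusted p = 0.15). Each MV lung exceeded each control, and in that comparison the groups did not overlap for 19.2% of all genes. The interaction of LPS and MV was 1.37 ± 0.21 (adjusted p = 0.00071). With the 3 kept probe sets averaged, the LPS, LPS+MV against LPS and interaction values were -0.58, 0.91 and 0.64 and still passed. That average includes dim probe sets kept through ventilated groups where they are high, so it does not repeat the result. LPS+MV lungs differed from controls by 0.36 ± 0.15 (adjusted p = 0.064). That difference passed at an adjusted p of 0.047 without juvenile LPS+MV replicate 1 (0.45) or without juvenile control replicate 4 (0.41). Of 8 neutrophil markers tested, 3 were higher in juvenile LPS than in control lungs (9.58% of all genes) and 3 higher in LPS+MV than in LPS lungs (5.97%). In either comparison 0 of these markers were lower (13.3% and 9.45% of all genes). Their part in the Pde7b result was not tested.

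In adults, Pde7b stood at 483, 408, 537 and 467 in LPS+MV lungs, at 205, 201, 176 and 265 in LPS lungs, at 689, 491, 425 and 457 in MV lungs, and at 311, 288, 232 and 245 in control lungs. Both ventilated groups lay above both unventilated groups on every array. Pde7b rose 1.8-fold with MV (0.85 ± 0.14, adjusted p = 5.6e-05), was higher in LPS+MV lungs than in controls (0.75 ± 0.14, adjusted p = 7.5e-05), and was 2.08-fold above LPS lungs (1.06 ± 0.14, adjusted p = 3e-05). LPS+MV against MV gave -0.10 ± 0.14 (adjusted p = 0.69). LPS alone gave -0.31 ± 0.14 (adjusted p = 0.081), which passed without adult LPS replicate 4 (-0.41, adjusted p = 0.029). With Xist as a term the differences of MV from control, of LPS+MV from control and of LPS+MV from LPS were 0.84, 0.74 and 1.05 (adjusted p = 0.004, 0.0011 and 0.001). With the 3 probe sets averaged they were 0.40, 0.42 and 0.54, which also passed, but that average again includes the dim probe sets. Untreated adults also had less Pde7b than untreated juveniles (-0.61 ± 0.14, adjusted p = 0.0016), with no overlap between the groups.

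The PDE3 genes encode enzymes that are known from heart, vessels and fat and that cyclic GMP inhibits. Pde3b was higher in ventilated adult lungs with or without LPS. Adult LPS+MV lungs had 199, 310, 264 and 271, LPS lungs 180, 138, 133 and 161, MV lungs 255, 271, 230 and 273, and control lungs 174, 139, 143 and 150. The lowest ventilated adult lung, at 199, exceeded the highest unventilated one, at 180. Pde3b rose 1.58-fold with MV (0.66 ± 0.10, adjusted p = 2.8e-05) and 1.59-fold with LPS+MV (0.67 ± 0.10, adjusted p = 5.9e-06), and LPS+MV exceeded LPS by 0.66 ± 0.10 (adjusted p = 0.00023). LPS alone gave 0.01 ± 0.10 (adjusted p = 0.96). With Xist as a term, the MV and LPS+MV differences from control were 0.64 and 0.65 (adjusted p = 0.0032 and 0.00018).

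In juveniles, Pde3b had 156, 198 and 207 in LPS+MV lungs, 115, 113, 125 and 123 in LPS lungs, 243, 245 and 213 in MV lungs, and 195, 175, 183 and 164 in control lungs. LPS lungs lay below all others and MV lungs above all others. LPS lowered the gene to 0.716 of control (-0.48 ± 0.10, adjusted p = 0.00067), and LPS+MV stood 1.44-fold above LPS (0.53 ± 0.11, adjusted p = 0.0014) and within 0.05 ± 0.11 of control (adjusted p = 0.78). The rise with MV was near the threshold (0.33 ± 0.11, adjusted p = 0.048) and was lost on leaving out any of the 7 arrays except juvenile control replicate 1, at 0.29 to 0.39 with adjusted p of 0.063 to 0.14, with Xist as a term (0.33, adjusted p = 0.055) and without the filter (adjusted p = 0.064). With a pseudocount of 1 the juvenile MV calls of Pde3b and Pde3a had an adjusted p of 0.05003 and 0.056, and that of Pde3a in LPS+MV against MV 0.054.

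Pde3a was read at lower intensity by its probe set. In juveniles it had 79.3, 95.8 and 103 in LPS+MV lungs, 58.3, 57.7, 46.8 and 43.7 in LPS lungs, 142, 139 and 116 in MV lungs, and 93.1, 68.4, 101 and 116 in control lungs. LPS lungs were again lowest without overlap. Pde3a fell with LPS (-0.59 ± 0.11, adjusted p = 0.00014), was higher in LPS+MV than in LPS lungs (0.58 ± 0.12, adjusted p = 0.0013), and lower in LPS+MV than in MV lungs (-0.40 ± 0.12, adjusted p = 0.028). It was higher with MV than in controls (0.39 ± 0.12, adjusted p = 0.031). The call against controls was lost without juvenile control replicate 1 or 2 or juvenile MV replicate 1 or 2 (0.28 to 0.38, adjusted p of 0.058 to 0.12), and the call of LPS+MV against MV without juvenile MV replicate 1 or 2 or juvenile LPS+MV replicate 1 or 2 (-0.42 to -0.32, adjusted p of 0.053 to 0.13).
In adults, Pde3a had 67.6, 67.4, 57.4 and 59.3 in LPS+MV lungs, 66.0, 38.1, 43.6 and 55.9 in LPS lungs, 77.7, 80.4, 55.7 and 69.2 in MV lungs, and 80.0, 75.9, 74.4 and 67.0 in control lungs. Of the treated adult groups, only LPS lay wholly below the controls. Adult LPS lowered it (-0.37 ± 0.11, adjusted p = 0.0083), while adult MV gave -0.05 ± 0.11 (adjusted p = 0.74). Heart muscle also expresses Pde3a, and the summed intensity of the cardiac muscle markers was 4278 to 15659 in adult LPS+MV, 6715 to 8926 in adult LPS, 6581 to 8957 in adult MV and 8613 to 9588 in adult control lungs. In juveniles that sum was 5825 to 7830 in LPS+MV, 6228 to 18095 in LPS, 5927 to 9946 in MV and 7245 to 9390 in control lungs. The LPS and control sums of juveniles overlapped, and the part of heart muscle in the Pde3a result was not tested. Untreated adults differed from untreated juveniles in Pde3a by -0.24 ± 0.11 (adjusted p = 0.1), which passed without juvenile control replicate 2 (-0.35, adjusted p = 0.018).

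Of the PDE4 genes, Pde4d encodes the isoform known for control of airway smooth muscle and heart, and it was highest in ventilated juveniles. Juvenile LPS+MV lungs had 198, 236 and 246, LPS lungs 149, 178, 152 and 166, MV lungs 399, 325 and 318, and control lungs 203, 230, 199 and 257. Each MV lung exceeded each control, and each LPS lung lay below each control. Pde4d rose 1.49-fold with MV (0.58 ± 0.13, adjusted p = 0.0061), and fell with LPS (-0.39 ± 0.12, adjusted p = 0.018). LPS+MV lungs lay above LPS (0.42 ± 0.13, adjusted p = 0.029) and below MV (-0.55 ± 0.14, adjusted p = 0.0069). The LPS call was lost without juvenile control replicate 4 or juvenile LPS replicate 1 or 3 (-0.37 to -0.33, adjusted p of 0.052 to 0.066), and the call of LPS+MV against MV without juvenile MV replicate 1 (-0.46, adjusted p = 0.059). The call of LPS+MV against LPS was lost without juvenile LPS replicate 1 or 3 or juvenile LPS+MV replicate 2 or 3 (0.37 to 0.40, adjusted p of 0.069 to 0.12), and with Xist as a term (0.45, adjusted p = 0.063).

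In adults, Pde4d had 199, 207, 198 and 207 in LPS+MV lungs, 164, 136, 142 and 132 in LPS lungs, 214, 243, 121 and 179 in MV lungs, and 196, 186, 152 and 169 in control lungs. MV arrays spanned both extremes. MV differed from control by 0.06 ± 0.12 (adjusted p = 0.74), and LPS by -0.25 ± 0.12 (adjusted p = 0.12). LPS+MV exceeded LPS by 0.42 ± 0.12 (adjusted p = 0.031), without overlap, but this call was lost on leaving out any of the 8 arrays except replicate 1 of either group (0.39 to 0.43, adjusted p of 0.061 to 0.085), and with Xist as a term (0.45, adjusted p = 0.11).

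Pde4b, the isoform that LPS induces in mouse macrophages, took another course. In adults it had 422, 352, 576 and 330 in LPS+MV lungs, 552, 383, 341 and 455 in LPS lungs, 120, 196, 109 and 107 in MV lungs, and 233, 313, 202 and 380 in control lungs. All 4 MV lungs lay below all other adult lungs. Pde4b fell to 0.526 of control with MV (-0.93 ± 0.25, adjusted p = 0.0058), and LPS+MV lungs were 2.74-fold above MV lungs (1.46 ± 0.25, adjusted p = 7.4e-05). With Xist as a term these were -1.23 and 1.53 (adjusted p = 0.013 and 4e-05). LPS gave 0.58 ± 0.25 (adjusted p = 0.07) and LPS+MV gave 0.53 ± 0.25 (adjusted p = 0.09) against control. Without adult control replicate 4 both passed, at 0.72 and 0.67 (adjusted p = 0.037 and 0.045).

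Neutrophil markers were higher in adult LPS+MV than in MV lungs, as Pde4b was, while their sums overlapped between MV and control lungs. Their summed intensity was 17888 to 22839 in LPS+MV, 21136 to 34778 in LPS, 2620 to 9921 in MV and 2893 to 23697 in control lungs. Of 8 neutrophil markers tested out of 10, 5 were higher and 0 lower in LPS+MV than in MV lungs (12% and 5.34% of all genes). In MV against control lungs 1 was higher and 1 lower (7.17% and 24.3% of all genes). Ly6g and Retnlg were not analysed here. Macrophage and monocyte marker sums were 5583 to 8221 in adult LPS+MV, 6695 to 9025 in LPS, 6730 to 7543 in MV and 7432 to 9228 in control lungs. They overlapped between LPS+MV and MV lungs. The part of either cell type in the Pde4b result was not tested.

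In juveniles, Pde4b varied more within groups, with 388, 439 and 874 in LPS+MV lungs, 518, 355, 377 and 329 in LPS lungs, 463, 168 and 307 in MV lungs, and 310, 402, 352 and 279 in control lungs. The groups overlapped in all of these comparisons. LPS+MV differed from control by 0.63 ± 0.27 (adjusted p = 0.077) and from MV by 0.81 ± 0.29 (adjusted p = 0.058). Without juvenile LPS+MV replicate 1 these passed at 0.84 and 1.02 (adjusted p = 0.037 and 0.029), and the difference from MV also passed without juvenile MV replicate 1 (1.12, adjusted p = 0.014). With its 3 kept probe sets averaged, LPS+MV differed from LPS by 0.75, from MV by 0.78 and from control by 0.92 (adjusted p = 0.012, 0.014 and 0.001). That average includes a dimmer probe set kept through arrays where it is high, so these values are a description only.

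Fewer comparisons passed for the remaining members. Pde8a, which encodes a high-affinity enzyme specific for cyclic AMP, averaged 168 ± 11.3 in juvenile LPS+MV, 152 ± 11.9 in LPS, 213 ± 20.0 in MV and 186 ± 10.9 in control lungs (SD, n = 3, 4, 3 and 4). It fell with juvenile LPS (-0.25 ± 0.07, adjusted p = 0.015) and was lower in LPS+MV than in MV lungs (-0.29 ± 0.09, adjusted p = 0.018), in both cases without overlap. The first call was lost without juvenile control replicate 2 or juvenile LPS replicate 4 (-0.22 and -0.20, adjusted p = 0.056 and 0.071), and the second without juvenile MV replicate 1 or 2 or juvenile LPS+MV replicate 1 (-0.28 to -0.24, adjusted p of 0.074 to 0.11).
Pde2a, which cyclic GMP stimulates and which is known from endothelium, had 183, 235, 225 and 221 in adult LPS+MV lungs and 179, 178, 176 and 176 in adult MV lungs. The difference of 0.24 ± 0.08 (adjusted p = 0.043) was lost without any of the 8 arrays except adult LPS+MV replicate 1 (0.20 to 0.24, adjusted p of 0.066 to 0.14), with Xist as a term (0.21, adjusted p = 0.075), without the filter (adjusted p = 0.057) and with the compared groups alone (adjusted p = 0.063). Quantile normalization and averaging of its probe sets brought it to 0.14 and 0.13 (adjusted p = 0.21 and 0.24). Its other kept probe sets differed in direction. Probe set 1447708_x_at, above the median on all 30 arrays, averaged 152 in adult LPS+MV and 159 in adult MV lungs. The dimmer 1452202_at averaged 33.2 and 24.8. Against adult controls Pde2a gave 0.15 ± 0.08 (adjusted p = 0.15), which passed without adult LPS+MV replicate 1 (0.22, adjusted p = 0.042). Pde4a, at 32.4 to 54.7, and Pde10a, at 48.4 to 89.7, passed in none of the 16 comparisons. Without adult MV replicate 4, Pde10a passed in adult MV against control (0.23, adjusted p = 0.04) and in LPS+MV against MV (-0.28, adjusted p = 0.025), the last also without adult LPS+MV replicate 1 (-0.25, adjusted p = 0.0497), and Pde4a passed in juvenile LPS against control without juvenile control replicate 4 (0.20, adjusted p = 0.049).

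**Figure D2:**
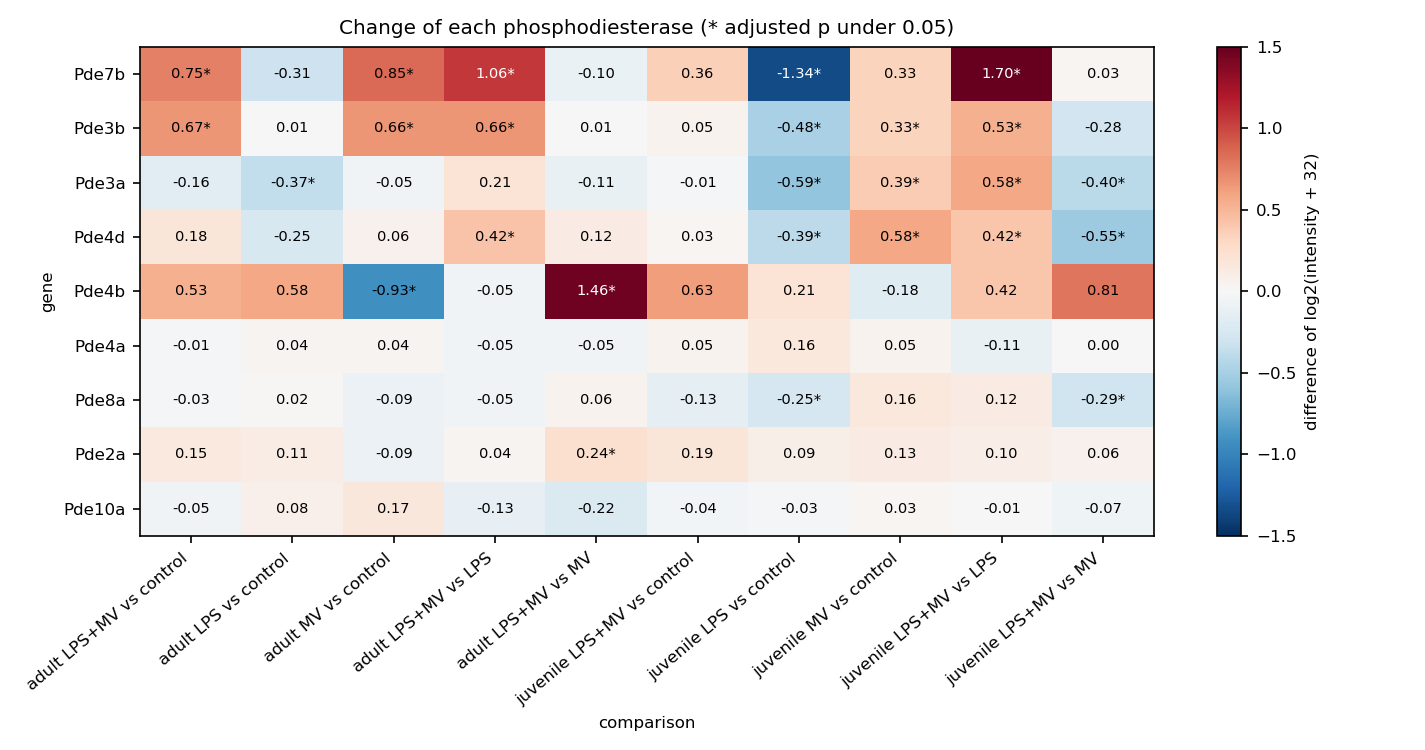
Difference of log2(intensity + 32) for the 9 tested genes (rows) in the 10 treatment comparisons (columns), with a star where the adjusted p passed 0.05 and colours that saturate at 1.5. The darkest cells are Pde7b in juvenile LPS against control (-1.34) and in juvenile LPS+MV against LPS (1.70), and Pde4b in adult LPS+MV against MV (1.46).

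Counted over the 9 tested genes, juvenile LPS lowered 5 and raised 0, where 13.3% of all genes tested were lower and 22.9% changed in either direction. Their median difference was -0.25, against -0.03 over all genes. Juvenile LPS+MV exceeded LPS in 4 and was lower in 0, where 5.97% of all genes were higher (15.4% changed), with medians of 0.42 and -0.02. Juvenile MV raised 3 (4.41% higher, 10.9% changed over all genes), and LPS+MV was lower than MV in 3 (7.78% lower, 14.7% changed). Juvenile LPS+MV against control passed in 0 of 9 by limma, where 31.3% of all genes changed. Unadjusted, 3 had a p under 0.05. The share of all genes at that threshold is not given here, so this count cannot be read as particular to these genes. The medians of that comparison were 0.05 for these genes and -0.05 for all. When the fit held the compared groups alone, the juvenile MV calls of Pde4d, Pde3b and Pde3a had an adjusted p of 0.061, 0.11 and 0.16, and those of Pde3a and Pde8a in LPS+MV against MV 0.065 and 0.11, and that of Pde8a in LPS against control 0.057.

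In adults, MV raised 2 and lowered 1 of the 9, where 7.17% of all genes were higher and 24.3% lower (31.5% changed). LPS lowered 1 (23% lower, 36% changed over all genes), and LPS+MV raised 2 (14.8% higher, 42.1% changed). LPS+MV exceeded LPS in 3, where 3.69% of all genes were higher and 7.04% changed, and exceeded MV in 2, where 12% were higher and 17.4% changed. Adult controls were lower than juvenile controls in 1 (10.1% lower, 25.2% changed). The comparisons against LPS and against control share the LPS groups, and those against control share the control groups, so these counts are not independent of each other.

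**Figure D3:**
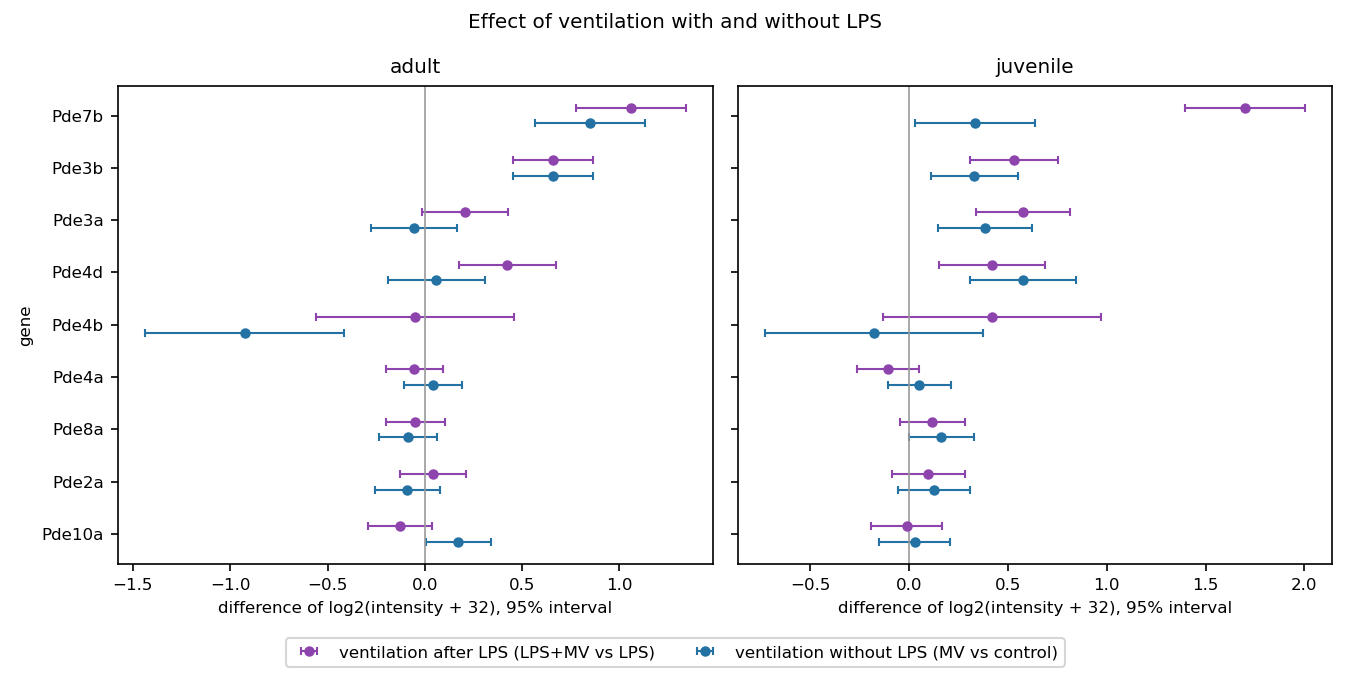
Effect of ventilation after LPS (LPS+MV against LPS) and without LPS (MV against control) for each gene, in adults (left) and juveniles (right), as a difference of log2(intensity + 32) with its 95% interval. In juveniles the intervals of Pde7b after LPS (1.70) and without LPS (0.33) do not meet, while in adults the estimates for Pde3b are both 0.66.

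In ventilated adult lungs, where Pde7b and Pde3b were higher than in controls, erythroid and alveolar type 1 marker sums were lower. Alveolar type 1 sums were lower in LPS lungs as well. Of 3 erythroid markers tested out of 5, 3 were lower in LPS+MV and 3 lower in MV than in control lungs, and 0 passed in LPS lungs. Over all genes, 27.3% were lower in adult LPS+MV, 24.3% in MV and 23% in LPS lungs, where 36% changed. The erythroid sums did not overlap between ventilated and unventilated adults, at 898 to 1152 in LPS+MV, 1405 to 2341 in LPS, 773 to 1060 in MV and 1720 to 2264 in control lungs. Of 7 alveolar type 1 markers, 5 were lower in LPS+MV, 4 in LPS and 6 in MV than in control lungs (27.3%, 23% and 24.3% of all genes). Their sums were 21081 to 23538 in LPS+MV, 24470 to 27022 in LPS, 21221 to 23944 in MV and 29360 to 32240 in control lungs. In juveniles, where Pde7b was lowest in LPS lungs, erythroid sums were 3147 to 4145 in LPS+MV, 2774 to 5314 in LPS, 1920 to 4074 in MV and 3722 to 6756 in control lungs. Sums of ciliated cell markers in juveniles were 1026 to 1378 in LPS+MV, 1675 to 1802 in LPS, 934 to 1009 in MV and 1621 to 1758 in control lungs. The part of ciliated cells in the juvenile MV results of Pde4d, Pde3a and Pde3b was not tested.

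Of 7 smooth muscle markers, 3 were higher and 0 lower in adult MV than in control lungs (7.17% and 24.3% of all genes), and their summed intensity was 6435 to 8444 against 5343 to 6061. In adult LPS+MV lungs, where Pde7b and Pde3b were as high, the sum was 4243 to 5893, and in adult LPS lungs it was 4174 to 5273. In juveniles 0 of the 7 passed in any treatment comparison by limma, where 10.9% to 31.3% of all genes did. The sums were 5430 to 5795 in LPS+MV, 5247 to 6041 in LPS, 5576 to 5994 in MV and 5796 to 6683 in control lungs. The part of these cell types in the Pde7b and Pde3b results was not tested.

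The series crosses treatment with age, and the difference between ages in the response was tested for each gene. The adult minus juvenile difference in the LPS response was 1.03 ± 0.19 for Pde7b (adjusted p = 0.0026) and 0.49 ± 0.14 for Pde3b (adjusted p = 0.049). Averaged with its dim probe sets, Pde7b gave 0.46 (adjusted p = 0.014). Both genes fell less in adults. LPS gave -0.31 in adults, which did not pass, and -1.34 in juveniles for Pde7b. For Pde3b it gave 0.01 in adults and -0.48 in juveniles. The 2 genes passing compare with 3.69% of all genes. The Pde3b value was lost on leaving out any of the 16 arrays of the 4 groups except adult LPS replicates 2 and 3, adult control replicate 1 and juvenile control replicate 4 (0.42 to 0.51, adjusted p of 0.061 to 0.11), with Xist as a term (0.49, adjusted p = 0.06) and without the filter (adjusted p = 0.064). For LPS+MV, Pde3b alone of the 9 passed, at 0.62 ± 0.15 (adjusted p = 0.027), where 2.1% of all genes passed, and it was lost without juvenile control replicate 1, juvenile LPS+MV replicate 1, adult control replicate 2 or 3 or adult LPS+MV replicate 2 (0.51 to 0.60, adjusted p of 0.052 to 0.078) and with the compared groups alone in the fit (adjusted p = 0.094). For MV, 0 of 9 passed by limma, where 6.13% of all genes did. Unadjusted, 5 had a p under 0.05, but the share of all genes at that threshold is not given here. Pde4d came nearest there, at -0.52 ± 0.18 (adjusted p = 0.079), and passed without adult MV replicate 2 or juvenile control replicate 4 (-0.63 and -0.58, adjusted p = 0.028 and 0.042), while Pde3a, at -0.44 ± 0.16 (adjusted p = 0.091), passed without juvenile control replicate 4 (-0.52, adjusted p = 0.034). The interaction of LPS and MV passed in juveniles in 1 of 9, Pde7b, where 0.749% of all genes passed. In adults it passed in 0 of 9 by limma, where 7.16% did, and 3 of the 9 had an unadjusted p under 0.05. Without the share of all genes at that threshold, the unadjusted counts cannot be read as particular to these genes.

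**Figure D4:**
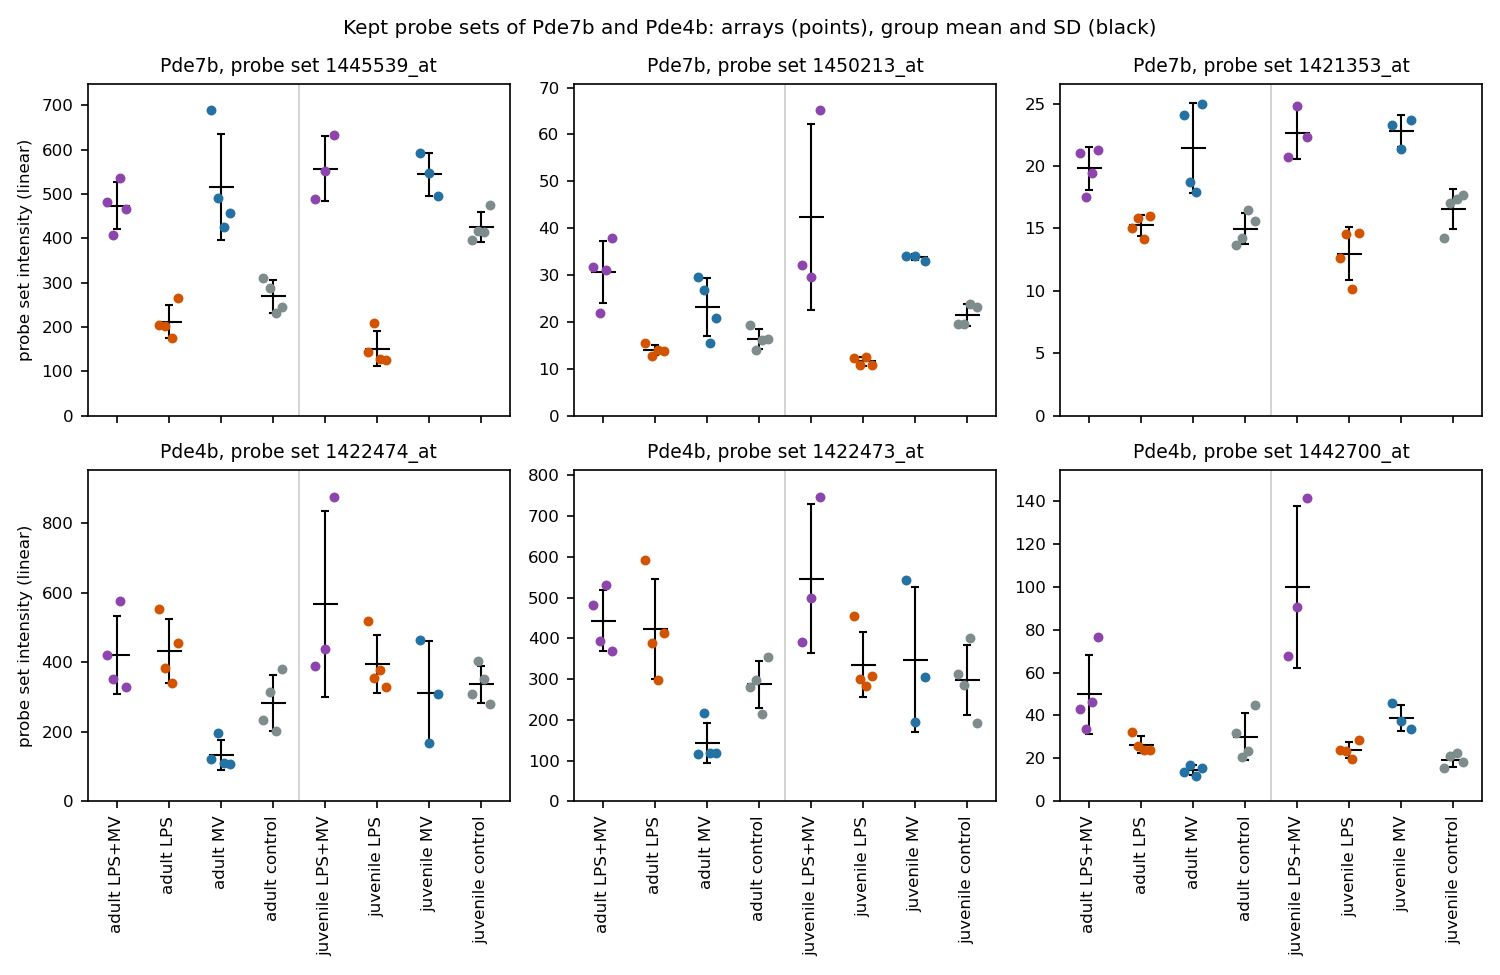
Intensity on the linear scale (vertical axes differ between panels) of the 3 kept probe sets of Pde7b (top) and the 3 of Pde4b (bottom) on each array, with group mean and SD in black. The first Pde7b probe set reaches 689 and the others at most 65.2 and 24.9, and the last Pde4b panel shows juvenile LPS+MV arrays at 67.8 to 141, above all juvenile arrays of other groups.

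Pde7b and Pde4b each had 3 kept probe sets. The other Pde7b probe sets, 1450213_at and 1421353_at, were dim and above the array's median on 13 and 6 arrays, so they were kept through the ventilated groups where they are high, and their values are a description that does not repeat the result of the bright probe set. Their LPS+MV to LPS differences in juveniles were 0.74 ± 0.10 and 0.28 ± 0.05, against 1.70 for the bright probe set. For juvenile LPS against control they gave -0.29 ± 0.09 and -0.11 ± 0.04.

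For Pde4b, probe set 1422473_at, designed on the same sequence entry as the representative 1422474_at, gave -0.89 ± 0.25 in adult MV against control (adjusted p = 0.0087) and 1.47 ± 0.25 in adult LPS+MV against MV (adjusted p = 6.9e-05 over 24825 probe sets). In juvenile LPS+MV against control it gave 0.80 ± 0.27 (adjusted p = 0.026). Probe set 1442700_at, designed on another sequence entry, was dimmer and above the median on 20 arrays, and was thus kept through arrays where it is high. It had 67.8, 90.8 and 141 in juvenile LPS+MV lungs, 24.0, 23.4, 19.5 and 28.7 in LPS lungs, 45.6, 37.3 and 33.8 in MV lungs, and 15.4, 21.1, 22.4 and 18.4 in control lungs. On this probe set each MV lung lay above each LPS and control lung, and each LPS+MV lung above each MV lung. It gave 1.33 ± 0.14 in juvenile LPS+MV against control (adjusted p = 5.1e-08), 1.20 ± 0.14 against LPS (adjusted p = 4e-06) and 0.47 ± 0.14 in juvenile MV against control (adjusted p = 0.037). In adult MV against control it gave -0.40 ± 0.13 (adjusted p = 0.024), and the difference between ages in the MV response was -0.87 ± 0.19 (adjusted p = 0.01), where 5.43% of all probe sets passed. Neutrophil marker sums in juveniles were 16042 to 17024 in LPS+MV, 7079 to 8748 in LPS, 3285 to 5619 in MV and 1048 to 4097 in control lungs, and 8 of the 8 markers tested were higher in LPS+MV than in control lungs (10.8% of all genes). Their part in the reading of this probe set was not tested. Which transcripts each probe set reads was not examined here.

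Among all genes tested, the patterns most like the 3 widest-ranging members were named by the correlation of the 8 group means, as a description. For Pde4b these were Spata2 (r = 0.977), Zdhhc5 (0.976), Smox (0.971) and Slc66a2 (0.962). For Pde7b they were Wee1 (r = 0.973), Atxn7 (0.957), Luc7l2 (0.957) and Bcl2 (0.953), and for Pde4d Ccdc186 (r = 0.993), Osbpl11 (0.986), Phf13 (0.980) and Trpc1 (0.979). The points are 8 group means over the same 30 arrays. Wee1, which encodes a kinase that restrains entry into mitosis, averaged 58.8 in juvenile LPS against 130 in juvenile control lungs.

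The other genes of cyclic nucleotide signalling were described from lists. Of 8 other phosphodiesterases tested out of 15, adult LPS+MV raised 1 and lowered 3, where 14.8% of all genes were higher and 27.3% lower. Juvenile LPS+MV raised 1 and lowered 1, where 10.8% were higher and 20.5% lower. Pde12, which encodes a mitochondrial enzyme that degrades oligoadenylates and is no cyclic AMP phosphodiesterase, was the one higher, by 1.14 ± 0.12 in adults (adjusted p = 3.7e-08) and 0.84 ± 0.13 in juveniles (adjusted p = 2.4e-05). Pde7a, the paralogue of Pde7b, fell in juvenile LPS lungs by 0.60 ± 0.11 (adjusted p = 0.00024) and was still at -0.49 ± 0.12 in LPS+MV lungs (adjusted p = 0.0028). In juvenile LPS+MV against LPS, Pde7a gave 0.10 ± 0.12 (adjusted p = 0.63), where Pde7b gave 1.70.

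Of 8 adenylyl cyclases tested out of 10, 5 were lower and 0 higher in adult LPS+MV than in control lungs (27.3% of all genes lower), and 1 was lower in juvenile LPS lungs (13.3% lower). The one was Adcy7, a cyclase of leukocytes and other cells, which averaged 268 ± 8.34 in juvenile LPS and 547 ± 62.7 in juvenile control lungs (SD, n = 4 each) and fell by 0.94 ± 0.10 (adjusted p = 2.7e-08). It fell by 0.93 ± 0.10 with adult LPS (adjusted p = 3e-08). Of 16 receptors and G protein subunits tested out of 24, juvenile LPS+MV raised 3 and lowered 6 (10.8% and 20.5% of all genes). Ptger4, the prostaglandin E receptor that raises cyclic AMP, rose by 1.86 ± 0.14 (adjusted p = 6.7e-11).

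Downstream, of 8 subunits and inhibitors of protein kinase A tested out of 9, juvenile LPS lowered 3 and raised 0 (13.3% of all genes lower), and adult MV lowered 4 and raised 0 (24.3% lower). Prkaca, a catalytic subunit, fell in juvenile LPS lungs by 0.48 ± 0.11 (adjusted p = 0.0021). Of 9 CREB family genes and coactivators tested out of 10, 5 rose and 0 fell in juvenile LPS+MV lungs, where 10.8% of all genes rose. Crem, which encodes activators and the repressor ICER, rose by 1.27 ± 0.19 in adult LPS+MV (adjusted p = 3.9e-06), by 0.87 ± 0.19 in adult LPS (adjusted p = 0.00057) and by 0.90 ± 0.19 in adult MV lungs (adjusted p = 0.00066). In juvenile LPS lungs Crem gave -0.30 ± 0.19 (adjusted p = 0.27).

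Of 13 CREB target genes tested out of 16, 8 were higher and 1 lower in juvenile LPS+MV than in LPS lungs (5.97% and 9.45% of all genes), with a median of 0.83 against -0.02 over all genes. In adults the same comparison had 3 higher and 1 lower (3.69% and 3.35% of all genes), with a median of 0.46 against -0.02 over all genes. Gem, a small GTPase, rose in every treatment group against control, by 0.80 ± 0.17 in adult MV to 2.78 ± 0.17 in adult LPS+MV lungs. Ppargc1a, a coactivator of mitochondrial genes, rose by 1.41 ± 0.16 in adult MV lungs (adjusted p = 9e-07), and gave -0.09 ± 0.16 in adult LPS lungs (adjusted p = 0.71). Of 13 anchoring proteins, juvenile LPS+MV raised 3 (10.8% of all genes) and lowered 0, among them Akap12 (0.90 ± 0.18, adjusted p = 0.00034). Of 11 genes of the cyclic GMP pathway tested out of 12, adult LPS raised 1 and lowered 4 (12.9% and 23% of all genes), and the one higher was Npr3, the clearance receptor of natriuretic peptides (1.79). Of 6 EPAC and popeye effectors tested out of 8, adult LPS+MV raised 2 (14.8% of all genes) and lowered 0.

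**Figure D5:**
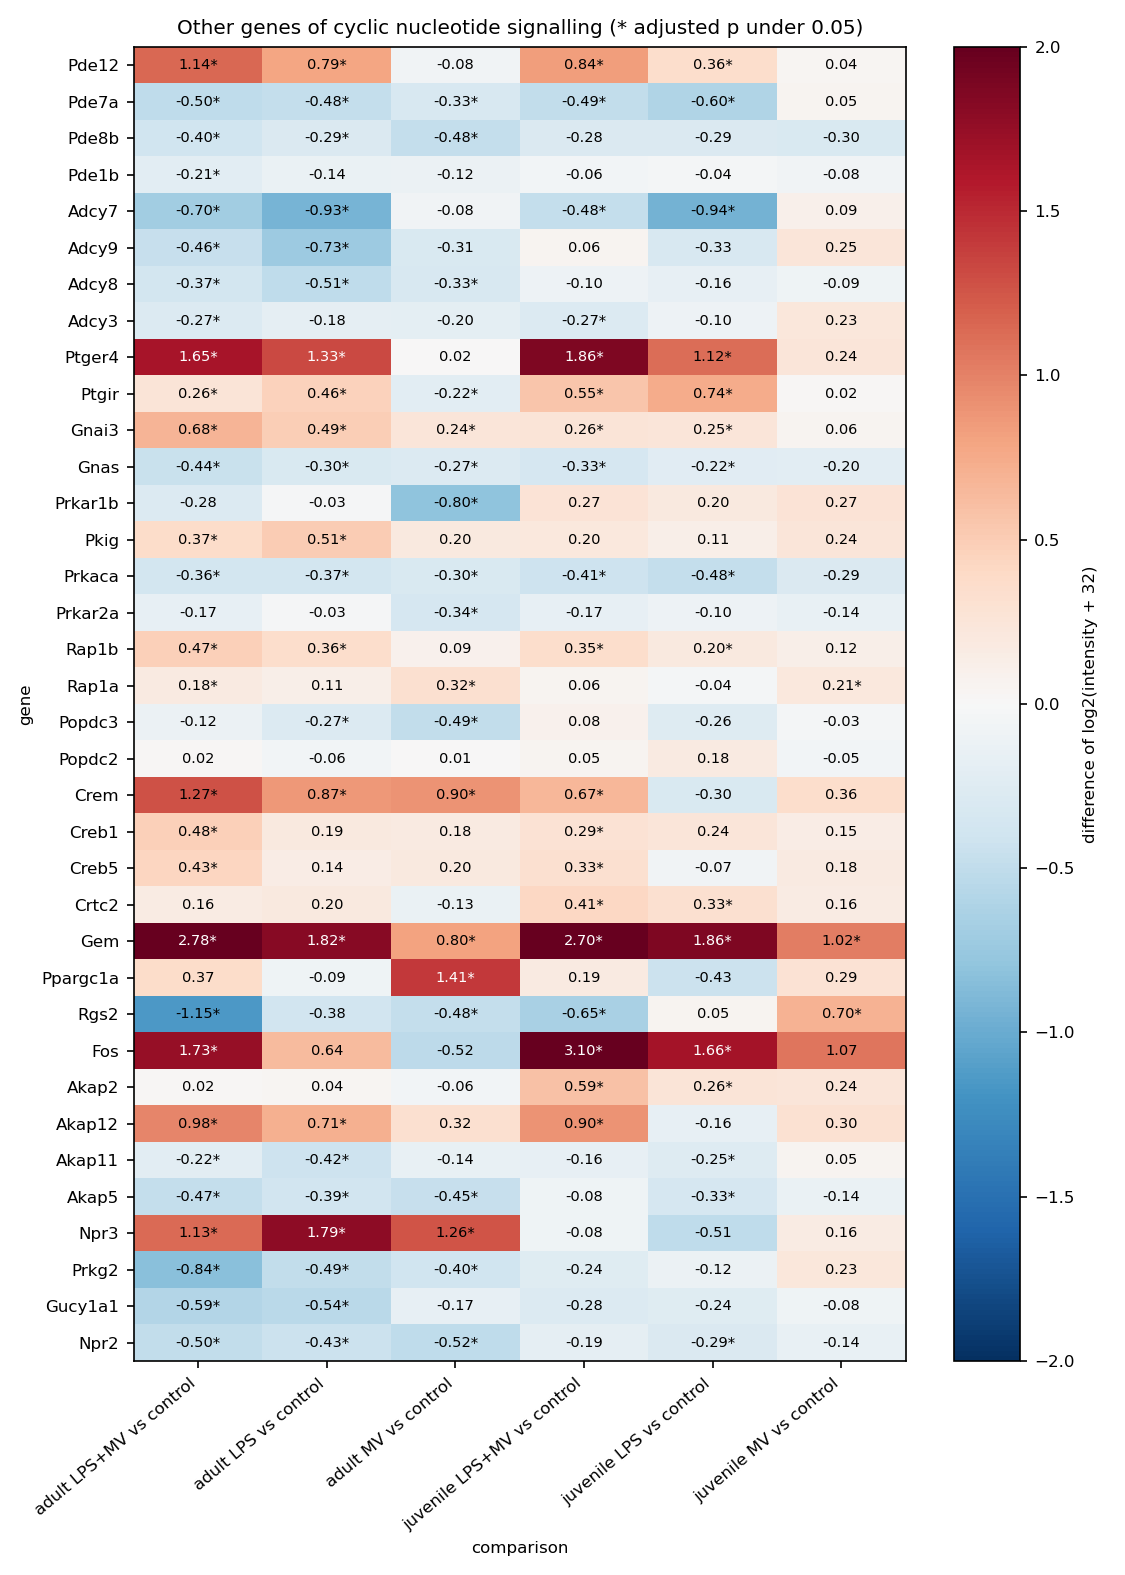
Difference of log2(intensity + 32) of the other named genes of cyclic nucleotide signalling (rows) in each treatment against control (columns), with a star where the adjusted p passed 0.05 and colours that saturate at 2. Ptger4 and Gem are high in all 4 groups that received LPS, while Adcy7 is lower in them, at -0.94 to -0.48.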

How the data were processed

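Total RNA from whole lungs, 1 animal per array, was hybridized to 30 arrays, and per the labels the RNA was kept when its integrity passed the laboratory's limit. The deposited values are probe set intensity on a linear scale, normalized by the authors; MAS5 is named in the submitters' processing notes, but the method of normalization is not given in the sources used here and the summarisation is not settled, so folds of dim genes depend on it. The intensities ran from 4.50 to 25073. No other column was used.

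Of 45037 probe sets, 34945 carried 1 gene symbol, 932 several and 9160 were not listed in the platform's annotation; 34741 gene identifiers were found in the RefSeq gene table, and 0 symbols changed. Probe sets that exceeded the median of their array on 3 or more arrays were kept (24825), a gene was represented by its kept probe set with the highest mean (13089 of 18193 genes named), and log2(intensity + 32) was modelled with limma 3.58.1 under R 4.3.3 (lmFit, then eBayes with trend, 22 residual and 4.87 prior degrees of freedom). The 8 group means shared 1 spread, the 16 comparisons were two-sided, and the Benjamini-Hochberg adjustment ran over genes per comparison, at 0.05. The probe sets of a gene were fitted likewise among all 24825. The number of arrays limits the precision. The members and lists were chosen with earlier results of these data known, and the text names all 10 members, up to 4 genes per list with the smallest p against control, others of a list where a count is small, and the 4 genes whose group means were most like each of the 3 widest-ranging members. Promoters are RefSeq windows on GRCm38.p6.

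On simulated data with 200 of 13089 genes changed, log2 changes of 0.5 and 1 were recovered in 72% and 97% of cases in adult LPS against control (3 of 172 calls false), and 73% and 99% in juvenile LPS+MV against control (5 of 177). In the data, 36% and 31.3% of genes were called in these comparisons, far more than the simulation changed. Its percentages therefore do not give the recovery or the false calls in the data. Alternatives were a fit of the compared groups alone, a block for replicate number, a term for Xist, quantile normalization, averaging of a gene's probe sets, omission of the filter, a pseudocount of 1, and each array left out in turn. No pair of arrays held identical values. The labels give no litter, collection time or hybridization batch. Figures were drawn with matplotlib 3.10.9.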

Additional observations from a re-analysis of the deposited data

Results flagged for a closer look

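The responses of 2 genes differed between the ages by the test of the interaction. For LPS the adult minus juvenile difference was 1.03 on the log2 scale for Pde7b and 0.49 for Pde3b, and both fell less in adults. Pde7b gave -0.31 in adults, which did not pass, and -1.34 in juveniles. Pde3b gave 0.01 in adults and -0.48 in juveniles. With LPS+MV, Pde3b gave 0.67 in adults and 0.05 in juveniles, a difference of 0.62. Within juveniles, the effect of ventilation on Pde7b after LPS exceeded that without LPS by 1.37. The Pde4b probe set 1442700_at also had different responses. Its difference between ages was -0.87 for MV and -0.94 for LPS+MV, lower in adults. In adults its effect of ventilation after LPS exceeded that without LPS by 0.87. This dimmer probe set was kept through arrays where it is high, so these values are a description only. The brighter probe set that represents Pde4b gave -0.75, -0.10 and 0.88 in the same tests by limma, and none passed (adjusted p = 0.23, 0.92 and 0.12). In 54 groups of 4 arrays no gene had an array that stood apart by Dixon's criterion (0 of 54).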

How the results depend on the processing

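Of 112 counts of members that passed under alternatives other than leaving out an array, 95 stayed within 1.5 times the reported count. The share of all genes passing is not given beside these counts, nor beside those with an array left out. A changed count therefore cannot be read as particular to these genes. With the compared groups alone in the fit, which has fewer arrays to estimate the spread, the counts were 0 for juvenile MV, 1 for juvenile LPS+MV against control, 1 for juvenile LPS+MV against MV, 3 for adult LPS, 1 for adult LPS+MV against MV and 0 for age by LPS+MV. Averaging a gene's probe sets gave 2 for juvenile LPS+MV against control, 1 for adult LPS+MV against MV and 1 for the adult interaction of LPS and MV. Quantile normalization gave 3 between the controls and 1 for juvenile LPS+MV against control, and a pseudocount of 1 gave 1 for juvenile MV. Adult LPS+MV against MV and age by LPS each had 1 without the filter and 1 with Xist as a term. The causes of these changes in count were not tested. The labels do not say that replicate numbers pair the animals. The median correlation of same-numbered deviations was -9.7e-05, 0.0164, 0.115 and 0.0153 for numbers 1 to 4. For number 3 the single correlations ran from -0.228 to 0.417, so a pairing was not excluded. With the replicate block age by LPS had 1, as the Pde3b calls there and in juvenile MV had an adjusted p of 0.06 and 0.057.

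With each array left out in turn, counts ran from 1 to 2 between the controls; in juveniles from 1 to 2 for MV, 4 to 5 for LPS, 0 to 2 for LPS+MV, 3 to 4 for LPS+MV against LPS, 1 to 3 against MV and 1 to 1 for the interaction; in adults from 3 to 4 for MV, 1 to 2 for LPS, 2 to 3 for LPS+MV, 2 to 3 against LPS, 1 to 3 against MV and 0 to 0 for the interaction; and from 0 to 2 for age by MV, 1 to 2 for age by LPS and 0 to 1 for age by LPS+MV. Of 2439 values of single members under all alternatives, 2326 kept their side of the threshold, 80 lost and 33 gained a call, and 0 changed sign with a call. The calls of Pde7b, of Pde3b in adult MV and LPS+MV, and of Pde4b in adult MV and in adult LPS+MV against MV were lost under none of these alternatives, but averaging a gene's probe sets, which brings in dim ones, lowered the size of the Pde7b values to -0.58 for juvenile LPS, 0.91 for juvenile LPS+MV against LPS, 0.64 for the juvenile interaction, 0.40 for adult MV, 0.42 for adult LPS+MV, 0.54 for adult LPS+MV against LPS, -0.27 between the controls and 0.46 for age by LPS. Without the filter, Pde1a in juvenile LPS gave 0.12 (adjusted p = 0.0079) at intensities below the array median. Dim probe sets limit what can be read of Pde1a, and of the dimmer probe sets of Pde7b.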
